A study of Homo sapiens with 4 samples.

Results

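The genes of the cyclins, the cyclin-dependent kinases (CDKs) and the CDK inhibitors were compared between Cal51, a human triple-negative breast cancer cell line, and Cal51R, its doxorubicin-resistant counterpart. Doxorubicin is an anthracycline drug that poisons topoisomerase II. Members were taken by symbol, as the CCN genes with 1 letter and an optional number, the numbered CDK genes and the CDKN1 to CDKN3 genes with a final letter. CCNG1 and CDKN1A, both targets of p53, were left out of the set. The rule found 53 genes among the 17215 of the deposited table, made up of 26 cyclins, 21 CDKs and 6 inhibitors. Polyadenylated RNA had been sequenced from 2 libraries of each line. The design text gives the purpose as finding the deubiquitinase behind doxorubicin resistance, and no drug treatment of either line at harvest is named in the labels. How Cal51R was derived, whether it is 1 clone and whether a line was cultured separately for each library are not in the labels, so the p-values reflect only differences among these libraries, which may be technical in origin.

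The libraries held 21637102 and 18537823 estimated reads for Cal51 and 17852484 and 19854907 for Cal51R, and 3 reads were worth 0.139 to 0.175 CPM (counts per 1000000 reads, scaled by TMM). Of the epithelial markers, KRT8, KRT18 and EPCAM were abundant in every library, while CDH1 stood at 0.989 to 2.92 CPM. Of the breast cancer receptor genes, ESR1 was low at 1.11 to 2.60 CPM and ERBB2 stood at 146 to 171 CPM. PGR was absent from the deposited table. Summed leukocyte markers were higher in Cal51, at up to 12.0 CPM, than in Cal51R, at 2.65 and 3.20 CPM, most of it CD68. Summed fibroblast markers stood at 1551 to 1687 CPM in Cal51 and at 395 to 405 CPM in Cal51R, nearly all of it COL1A2. Summed epithelial markers were at 12561 and 14335 CPM in Cal51 and at 6965 and 5817 CPM in Cal51R, nearly all of it KRT8 and KRT18. EPCAM was also lower in Cal51R, at 76.7 and 76.0 CPM against 182 and 181 CPM in Cal51. KRT19, KRT7, CLDN4 and CDH1 were higher in Cal51R (KRT19 reached 83.2 and 78.0 CPM there). Summed basal and mesenchymal markers were at 746 and 748 CPM and at 1687 and 1746 CPM. Of these, FN1 was higher in Cal51R (263 and 222 against 1351 and 1411 CPM), and the means of VIM, CDH2, KRT5 and KRT14 were lower (VIM at 479 and 521 against 335 and 335 CPM). Summed endothelial markers were at 57.1 and 53.5 CPM in Cal51 and at 139 and 146 CPM in Cal51R, nearly all of it PECAM1. The part of these marker differences in the results was not tested. In bulk RNA, fewer cells that express a gene and less RNA of it per cell cannot be told apart.

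Cyclins are regulatory subunits that switch on their partner kinases. D cyclins with CDK4 or CDK6 start the phosphorylation of the retinoblastoma protein, which frees E2F factors to induce E cyclins, and cyclin E with CDK2 then drives entry into S phase. A and B cyclins with CDK2 and CDK1 carry cells through S phase and mitosis. The INK4 inhibitors bind CDK4 and CDK6, and the CIP/KIP inhibitors bind cyclin-CDK complexes more broadly. A separate branch of the family (CDK7 to CDK13 and CDK19 with cyclins C, H, K, L and T) acts on RNA polymerase II and on RNA processing.

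The resistant line combined a higher level of one INK4 inhibitor gene, CDKN2C, with lower levels of both E cyclin genes and of CDK1, CDK2 and CCNA2. Of the 53 members, 52 had enough reads to be tested. By edgeR's quasi-likelihood test at an adjusted p of 0.05, 38 of these differed between the lines, with 16 higher and 22 lower in Cal51R. In all, 70.8% of the 13674 genes tested passed, 35.3% higher and 35.5% lower, against 73.1%, 30.8% and 42.3% of the tested members, so the number of changed members is close to the background. At least 2-fold, 9 members rose and 8 fell, which is 17.3% and 15.4% of those tested, beside 13.7% and 9.87% of all genes. The median log2 fold change was -0.11 over the members and 0.02 over all genes tested. Scaling mattered for the balance of directions. Library totals shift the median gene by 0.20 (log2), and with them 19 members rose and 17 fell, so that 52.8% of the changed members were higher, against 42.1%. Of all genes that changed, 64.7% were higher with library totals and 49.9% with TMM scaling, so the member share was lower under both. The CPM of the 2 lines did not overlap for 47 members, or 90.4%, and for 85.0% of all genes tested.

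By role, 6 of 11 tested cell cycle cyclins fell and 3 rose, with a median log2 fold change of -0.48, and 4 of 5 cell cycle CDKs fell and 1 rose, with a median of -0.57. Of 8 cyclins of transcription and RNA processing, 3 rose and 2 fell, and of 9 such CDKs 3 rose and 3 fell (0 rose with DESeq2), with medians of -0.10 and -0.11. Of the other CDKs, 3 of 7 rose and 2 fell. The inhibitors split, with 2 of 4 INK4 genes higher and 1 lower, and 1 of 2 CIP/KIP genes in each direction.

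**Figure D1:**
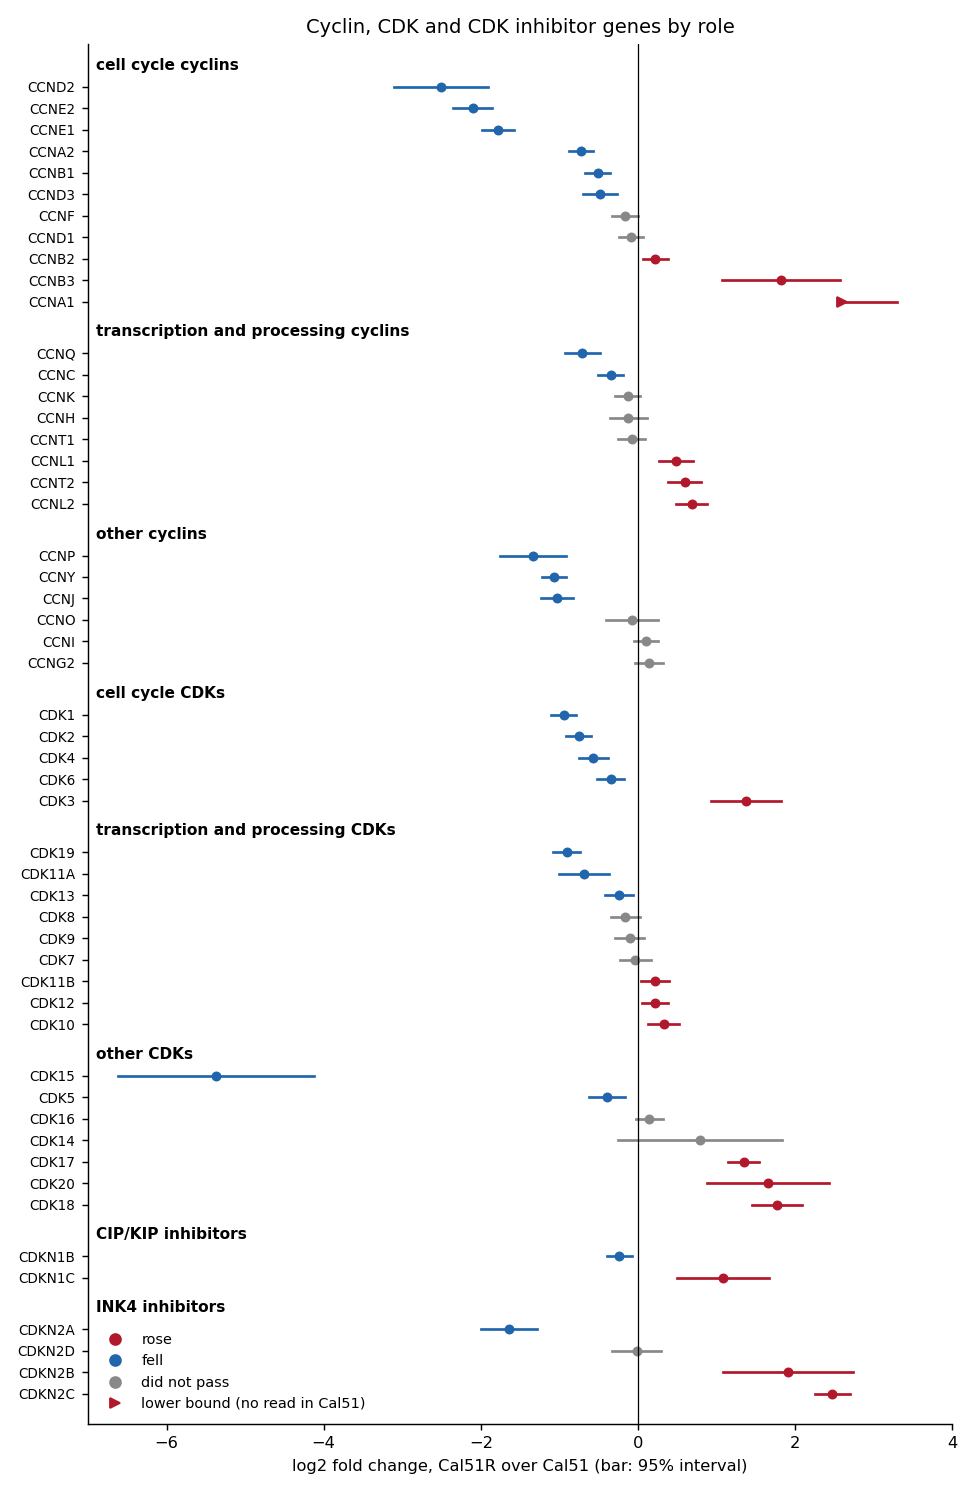
Log2 fold change of the 52 tested members, Cal51R over Cal51, grouped by role, with bars for the 95% interval of the edgeR fit. CCNA1, which had no read in Cal51, is drawn as a lower bound at 2.60 in place of its fitted value. Apart from CCNA1, CDKN2C is the highest fitted value at 2.48 and CDK15 the lowest at -5.37.

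The 24 members that changed at least 1.5-fold with a mean of at least 1 CPM are described here with the CPM of each library, Cal51 first. Their fold changes had standard errors (SE) of 0.07 to 0.59 (log2) and edgeR adjusted p-values of at most 0.00244. For all 24 the lines did not overlap, which the choice of changed genes favours. Under the other settings in which each was tested, 1 of these 24 calls was lost, that of CDKN1C with DESeq2.

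**Figure D2:**
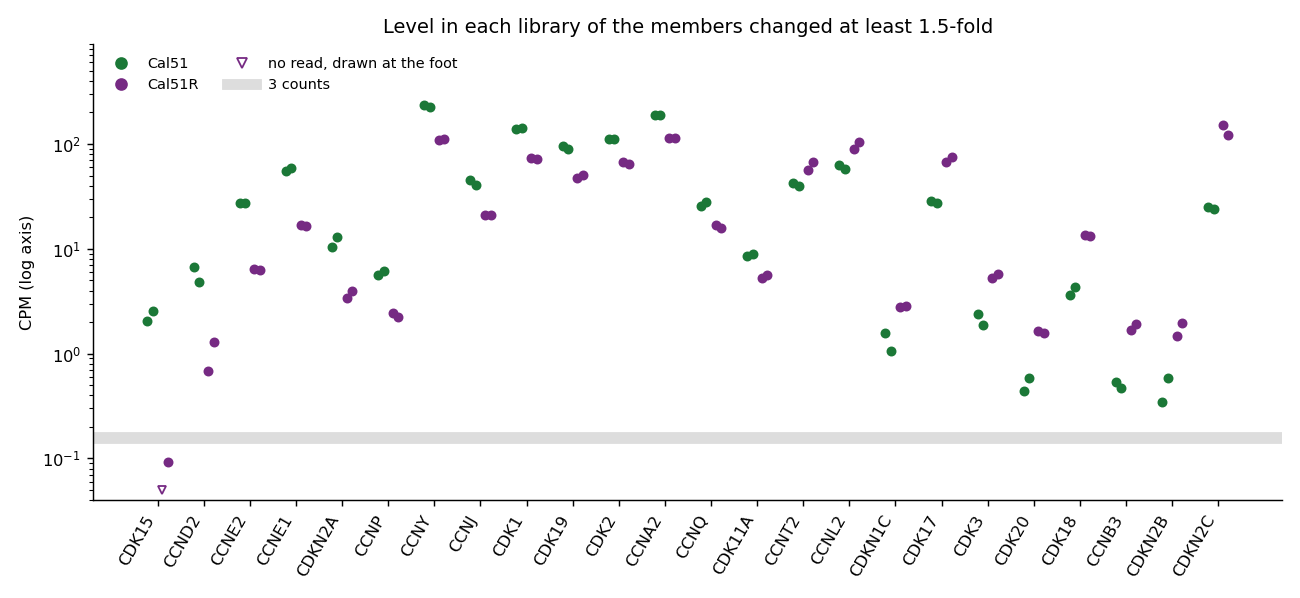
CPM on a log axis in each of the 4 libraries for the 24 members changed at least 1.5-fold, ordered by fold change, with the level of 3 counts as a grey band. CDKN2C moves up from 25.1 and 23.9 CPM in Cal51 to 151 and 122 CPM in Cal51R, while CCNE1 moves down from 55.0 and 59.5 CPM to 16.8 and 16.5 CPM.

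The INK4 genes moved apart. CDKN2C, which encodes p18INK4c, an inhibitor of CDK4 and CDK6 (chromosome 1, 50960745 to 50974634), stood at 25.1 and 23.9 CPM in Cal51 and at 151 and 122 CPM in Cal51R. Both Cal51R libraries were far above both Cal51 libraries, a rise of 5.56-fold (edgeR, log2 fold change 2.48 ± 0.10 SE, adjusted p = 2.8e-12). CDKN2A, the gene of p16INK4a and, in another reading frame, of the p53 activator ARF (chromosome 9, 21967752 to 21995324), went the other way, from 10.3 and 12.9 CPM to 3.39 and 3.99 CPM, a fall of 3.12-fold. Gene-level reads do not separate its p16INK4a and ARF transcripts. Its neighbour and relative CDKN2B, the gene of p15INK4b, rose 3.76-fold at a very low level, from 7 and 10 reads to 28 and 42 reads. The related sequences of CDKN2A and CDKN2B can share reads. CDKN2D, the gene of p19INK4d, had 8.02 and 8.96 CPM in Cal51 and 9.07 and 7.75 CPM in Cal51R, and the lines overlapped (log2 fold change -0.01, 95% interval -0.33 to 0.30; edgeR adjusted p = 0.933).

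Per transcript length, on the authors' TPM scale, the INK4 genes summed to 63.2 and 66.8 TPM in Cal51 and to 244 and 217 TPM in Cal51R. CDKN2C made up 41.9% and 35.8% of that sum in Cal51 and 88.7% and 86.9% in Cal51R. In Cal51, CDKN2A and CDKN2C were thus at similar levels (22.3 and 26.7 TPM against 26.5 and 23.9 TPM), and in Cal51R the order was clear. With 2 libraries against 2, an exact permutation test cannot go below p = 0.333, which is the value for this share and for every other family share whose lines do not overlap. Among all 53 members, CDKN2C had rank 30 by TPM in both Cal51 libraries and rank 5 in both Cal51R libraries. Its TPM per CPM had a ratio of 1.45 between the lines, against a median of 1.19 over genes of at least 10 CPM. The TPM share and rank of CDKN2C, and the INK4 sums, carry that difference.

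The targets of the INK4 proteins fell moderately. CDK4, the most abundant member by TPM in 3 of the 4 libraries, went from 389.6 and 436 CPM to 299 and 258 CPM, 1.48-fold lower (edgeR, log2 fold change -0.57 ± 0.09 SE, adjusted p = 1.82e-05). CDK6 went from 129 and 121 CPM to 92.2 and 104 CPM, a log2 fold change of -0.35 (edgeR adjusted p = 0.00116), and this call was lost with library totals and on both FPKM scales (adjusted p up to 0.249; 6.57e-10 to 0.249 over the alternatives). CDK4 held 94.0% to 95.8% of the summed TPM of the pair in all 4 libraries, and the lines overlapped. Set against the pair, the INK4 genes summed to 13.1 TPM per 100 TPM of CDK4 and CDK6 in each Cal51 library, and to 59.3 and 56.1 TPM in Cal51R. These are RNA ratios and do not measure inhibitor bound to kinase.

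The D cyclins, which activate CDK4 and CDK6, had 1 clear loss at a low level. CCND2 fell 5.68-fold, from 6.65 and 4.83 CPM to 0.689 and 1.30 CPM, with the 2 libraries of each line well apart from those of the other. CCND3 fell from 66.3 and 73.3 CPM to 56.0 and 44.2 CPM (log2 fold change -0.48; edgeR adjusted p = 0.000589), a call that was lost on log2(FPKM + 0.1) (limma adjusted p = 0.0845; 1.27e-14 to 0.0845 over the alternatives). CCND1, the main D cyclin gene in both lines, had 334 and 317 CPM in Cal51 and 305 and 308 CPM in Cal51R and did not pass (log2 fold change -0.09, 95% interval -0.24 to 0.06; edgeR adjusted p = 0.284). By TPM, CCND1 was 69.6% and 66.5% of the D cyclins in Cal51 and 71.6% and 76.0% in Cal51R, and CCND2 was down to 0.25 and 0.52 TPM in Cal51R.

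**Figure D3:**
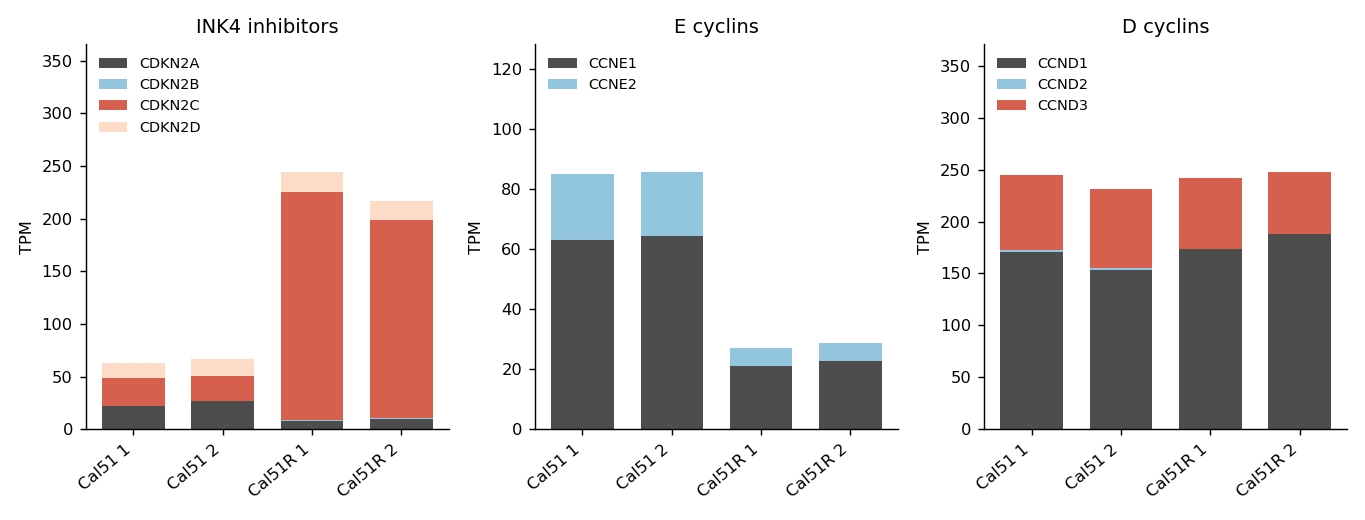
Stacked TPM (length-scaled transcript abundance, by the authors) of the INK4 inhibitor, E cyclin and D cyclin genes in each library. The INK4 stack grows from 63.2 and 66.8 to 244 and 217 TPM through CDKN2C, the E cyclin stack shrinks from 85.0 and 85.7 to 27.0 and 28.7 TPM, and the D cyclin stack lies at 231 to 247 TPM in all 4. TPM sums carry a scaling between the lines (median ratio of TPM per CPM, Cal51R over Cal51, 1.19), so a level stack is not an unchanged CPM.

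Both E cyclin genes, whose products activate CDK2 at the start of S phase, fell to about the same degree. CCNE1 (chromosome 19, 29811991 to 29824312) stood at 55.0 and 59.5 CPM in Cal51 and at 16.8 and 16.5 CPM in Cal51R, a fall of 3.44-fold (edgeR, log2 fold change -1.78 ± 0.10 SE, adjusted p = 6.85e-11). CCNE2 stood at 27.3 and 27.2 CPM and at 6.42 and 6.26 CPM, a fall of 4.30-fold (edgeR, log2 fold change -2.10 ± 0.12 SE, adjusted p = 1.21e-10). The libraries of one line differed by far less than the lines in both genes. CCNE1 was the larger part of the E cyclin TPM throughout, with 74.1% and 75.4% in Cal51 and 79.0% and 79.2% in Cal51R. The ratio of E cyclins to D cyclins was 34.8 and 37.1 TPM per 100 in Cal51 and 11.1 and 11.6 TPM per 100 in Cal51R.

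CDK2, the kinase partner of E and A cyclins, had a smaller fold change and went from 112 and 111 CPM to 68.0 and 64.2 CPM (edgeR, log2 fold change -0.75 ± 0.08 SE, adjusted p = 2.11e-07). E cyclins summed to 78.0 and 82.7 TPM per 100 TPM of CDK2 in Cal51 and to 36.4 and 38.2 TPM in Cal51R. CDK3, a kinase related to CDK2 whose role is less well known, was a low transcript that rose 2.60-fold, from 2.36 and 1.86 CPM to 5.30 and 5.75 CPM. The CIP/KIP inhibitor genes gave small or low changes. CDKN1B, the gene of p27KIP1, had 87.9 and 90.3 CPM in Cal51 and 74.0 and 77.0 CPM in Cal51R, a log2 fold change of -0.24 (edgeR adjusted p = 0.0109). That call was lost with library totals, on both FPKM scales and without either Cal51 library (adjusted p = 0.0634 without replicate 1 and 0.115 without replicate 2; 6.23e-05 to 0.693 over the alternatives). CDKN1C, the gene of p57KIP2, rose from 32 and 18 reads, or 1.58 and 1.05 CPM, to 53 and 61 reads, or 2.81 and 2.83 CPM (log2 fold change 1.08 ± 0.28 SE). With DESeq2 its adjusted p was 0.0501 (5.92e-05 to 0.0501 over the alternatives).

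The genes of S phase and mitosis had smaller fold changes than the E cyclins, and the main B cyclin genes went in opposite directions. CDK1, the mitotic kinase, went from 138 and 141 CPM to 73.4 and 71.5 CPM (edgeR, log2 fold change -0.94 ± 0.07 SE, adjusted p = 9.16e-09). CCNA2, its partner and that of CDK2, went from 190.2 and 188 CPM to 114 and 115 CPM (edgeR, log2 fold change -0.72 ± 0.07 SE, adjusted p = 1.49e-07). CCNA2 shares part of its span with EXOSC9, and strand-specific counting was not given in the sources used here. The reads of such overlaps cannot be told apart without it, which also touches CCNE2, CDK4, CDK19, CCNC, CCNH, CCNK and CDK7. CCNB1, the main mitotic cyclin, fell from 269 and 291 CPM to 200.3 and 192 CPM (edgeR, log2 fold change -0.51 ± 0.07 SE, adjusted p = 1.21e-05). CCNB2, the other B cyclin of dividing cells, was slightly higher in Cal51R, at 109 and 101 CPM against 87.6 and 92.3 CPM (log2 fold change 0.22; edgeR adjusted p = 0.0164). The CCNB2 call was lost with DESeq2 and without Cal51 replicate 1, Cal51 replicate 2 or Cal51R replicate 1 (adjusted p = 0.0653, 0.228, 0.0811 and 0.0718; 5.69e-05 to 0.228 over the alternatives). As a share of the summed B cyclin TPM, CCNB1 went from 69.0% and 69.6% to 57.1% and 57.8%. That sum was 422 and 429 TPM in Cal51 and 422 and 429 TPM in Cal51R. Such equal sums do not show an unchanged total on the CPM scale. The ratio of TPM per CPM, Cal51R over Cal51, had a median of 1.19 over genes of at least 10 CPM.

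Cyclins known from germ cells were higher in Cal51R at low levels. CCNA1, an A cyclin best known from the testis, had no read in either Cal51 library and 22 and 17 reads in Cal51R, at least 6.07-fold higher when Cal51 is set at 3 counts per library. At 1.17 and 0.789 CPM it left CCNA2 with 98.4% and 98.9% of the A cyclin TPM. CCNB3, a B cyclin known from meiosis, rose 3.53-fold, from 11 and 8 reads to 32 and 41 reads. CCNF, the F-box cyclin that marks other proteins for degradation, had 92.8 and 89.2 CPM in Cal51 and 85.5 and 77.1 CPM in Cal51R and did not pass (edgeR adjusted p = 0.0768), though it did without Cal51R replicate 1 (edgeR, log2 fold change -0.24, adjusted p = 0.00967, with a range of 0.00496 to 0.744 over the alternatives).

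Promoter sequences are shown for the 4 cyclin and CDK genes of S phase and mitosis. Promoters of such genes are known for CCAAT boxes and for the cell cycle homology region, searched here as TTTGAA. CCNE1 and CDKN2C are shown as a G1 cyclin gene that fell and the inhibitor gene that rose. Each line gives the 150 bases before the annotated start (RefSeq, GRCh38.p14), 5′ to 3′ on the strand of the gene. Capitals mark CCAAT boxes (ATTGG on the other strand), the letters TTTGAA and the E2F-type letters TTTCCCGC, TTTGGCGC, TTTGCCGC and TTTCGCGC, searched on both strands. For CDK1 and CDKN2C, with 2 and 3 annotated starts, the start farthest downstream was taken.
CDK1 (chr10:60778328-60778477, plus strand): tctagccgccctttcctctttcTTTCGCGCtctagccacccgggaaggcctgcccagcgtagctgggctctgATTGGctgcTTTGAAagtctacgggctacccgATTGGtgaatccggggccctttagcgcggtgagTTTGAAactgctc
CCNA2 (chr4:121823884-121824033, minus strand): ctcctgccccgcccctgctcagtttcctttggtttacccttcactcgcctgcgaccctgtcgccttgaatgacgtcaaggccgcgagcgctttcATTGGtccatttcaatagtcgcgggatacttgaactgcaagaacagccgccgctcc
CCNB1 (chr5:69167000-69167149, plus strand): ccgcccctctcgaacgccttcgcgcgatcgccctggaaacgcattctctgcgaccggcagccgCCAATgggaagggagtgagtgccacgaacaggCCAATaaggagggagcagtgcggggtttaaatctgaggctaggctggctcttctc
CCNB2 (chr15:59104996-59105145, plus strand): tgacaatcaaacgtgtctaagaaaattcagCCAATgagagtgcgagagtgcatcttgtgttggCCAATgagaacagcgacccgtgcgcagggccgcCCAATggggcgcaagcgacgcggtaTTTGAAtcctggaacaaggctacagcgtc
CCNE1 (chr19:29811841-29811990, plus strand): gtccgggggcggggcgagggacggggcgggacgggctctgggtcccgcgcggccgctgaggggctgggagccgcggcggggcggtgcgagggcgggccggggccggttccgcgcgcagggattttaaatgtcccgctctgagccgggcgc
CDKN2C (chr1:50970095-50970244, plus strand): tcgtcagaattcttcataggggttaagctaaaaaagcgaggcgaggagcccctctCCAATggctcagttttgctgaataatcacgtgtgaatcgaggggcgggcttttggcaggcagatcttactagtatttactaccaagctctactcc

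The CDK1 stretch held 2 CCAAT boxes, 2 copies of TTTGAA and 1 E2F-type match, and the CCNB2 stretch held 3 CCAAT boxes and 1 TTTGAA. CCNB1 had 2 CCAAT boxes, and CCNA2 and CDKN2C had 1 each. None of these matches overlapped another. CDK1 and CCNB2, which held both CCAAT and TTTGAA here, differed in direction. Only the exact letters were searched, so a stretch without TTTGAA is not shown to lack a cell cycle homology region. Over whole windows of 300 bases (250 before and 50 after the start), CCAAT was found in 34.6% of all 35116 windows and in 36.2% of the 69 windows of 48 members. For TTTGAA the shares were 15.2% and 11.6%, and for the E2F-type letters 3.31% and 8.70%, the last being 6 windows of 5 members. Both CDK1 windows are among these and overlap, so the windows are not independent. At least 2 CCAAT boxes and TTTGAA were found in 1.78% of all windows and in 5.80% of the member windows. The latter were 4 windows of 4 members, CDK1, CDK19, CCNB2 and CCNF. CDK1 and CDK19 fell, CCNB2 rose and CCNF did not pass.

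Among the kinases and cyclins of transcription and RNA processing, related genes often differed in how they moved. CDK19, the alternative to CDK8 as the kinase of the Mediator complex, fell from 95.3 and 89.3 CPM to 47.8 and 50.5 CPM (edgeR, log2 fold change -0.91 ± 0.08 SE, adjusted p = 4.73e-08). CDK8 had 47.2 and 50.9 CPM in Cal51 and 43.9 and 43.8 CPM in Cal51R and did not pass (log2 fold change -0.16, 95% interval -0.34 to 0.02; edgeR adjusted p = 0.105). By TPM, CDK8 was 51.6% and 54.7% of the pair in Cal51 and 66.9% and 65.3% in Cal51R, so that the lines did not overlap. Their cyclin, CCNC, had a log2 fold change of -0.35 (edgeR adjusted p = 0.000714), a call that was lost with library totals and on both FPKM scales (adjusted p up to 0.2; 1.2e-09 to 0.2 over the alternatives).

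CCNT2, one of the cyclins of the elongation kinase CDK9, rose from 42.4 and 39.5 CPM to 56.0 and 67.5 CPM (edgeR, log2 fold change 0.59 ± 0.10 SE, adjusted p = 4.74e-05). CCNT1, the other T cyclin, had 72.1 and 71.7 CPM in Cal51 and 64.2 and 71.6 CPM in Cal51R (edgeR adjusted p = 0.386), and its share of the T cyclin TPM went from 57.5% and 58.8% to 47.2% and 46.3%. CDK9 itself, the kinase, did not pass (log2 fold change -0.11, 95% interval -0.29 to 0.07; edgeR adjusted p = 0.274). Both L cyclin genes, whose products work with CDK11 in splicing, rose together. CCNL2 went from 63.4 and 57.1 CPM to 88.7 and 105 CPM (log2 fold change 0.69 ± 0.09 SE), and CCNL1 had a smaller increase (edgeR, log2 fold change 0.48 ± 0.10 SE, adjusted p = 0.00046).

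The copies CDK11A and CDK11B are nearly identical and neighbour each other on chromosome 1, so their reads are uncertain singly. CDK11A was 11.8% and 11.0% of the pair's reads in Cal51 and 6.14% and 6.63% in Cal51R, with a log2 fold change of -0.69 for CDK11A and 0.22 for CDK11B. Summed, the pair stood at 72.9 and 81.3 CPM in Cal51 and 85.5 and 84.0 CPM in Cal51R. The increases of CDK10, CDK11B and CDK12, a kinase of transcript elongation, were small (log2 fold changes of 0.33, 0.22 and 0.22), and all 3 were lost with DESeq2 (adjusted p = 0.0562, 0.114 and 0.0741). They were also lost without Cal51 replicate 2 for CDK10 (edgeR adjusted p = 0.0738), without Cal51 replicate 1 for CDK11B (0.43) and without either for CDK12 (0.0592 and 0.31). Their highest adjusted p over the alternatives was 0.0738, 0.43 and 0.31, and the lowest 5.52e-05, 0.000156 and 9.65e-05. CDK13, the relative of CDK12, had a log2 fold change of -0.24 (edgeR adjusted p = 0.0164) that was lost with library totals, on both FPKM scales and without either Cal51 library (0.17 without replicate 1 and 0.056 without replicate 2; 0.000207 to 0.944 over the alternatives). CDK12 took 54.9% and 54.7% of the summed TPM of CDK12 and CDK13 in Cal51 and 63.0% and 62.8% in Cal51R.

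CCNQ, the cyclin that activates CDK10, fell from 25.4 and 27.9 CPM to 16.9 and 15.8 CPM (edgeR, log2 fold change -0.71 ± 0.11 SE, adjusted p = 1.66e-05). The trimeric CDK-activating kinase was measured by CDK7 and CCNH, and neither passed. CDK7 had a log2 fold change of -0.03 (95% interval -0.23 to 0.16) and CCNH one of -0.12 (-0.35 to 0.11), which passed without Cal51R replicate 2 (edgeR, log2 fold change -0.26, adjusted p = 0.0442, with a range of 0.0442 to 0.974 over the alternatives). CCNK, the cyclin of CDK12 and CDK13, did not pass either (log2 fold change -0.13, 95% interval -0.29 to 0.03; edgeR adjusted p = 0.127).

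**Figure D4:**
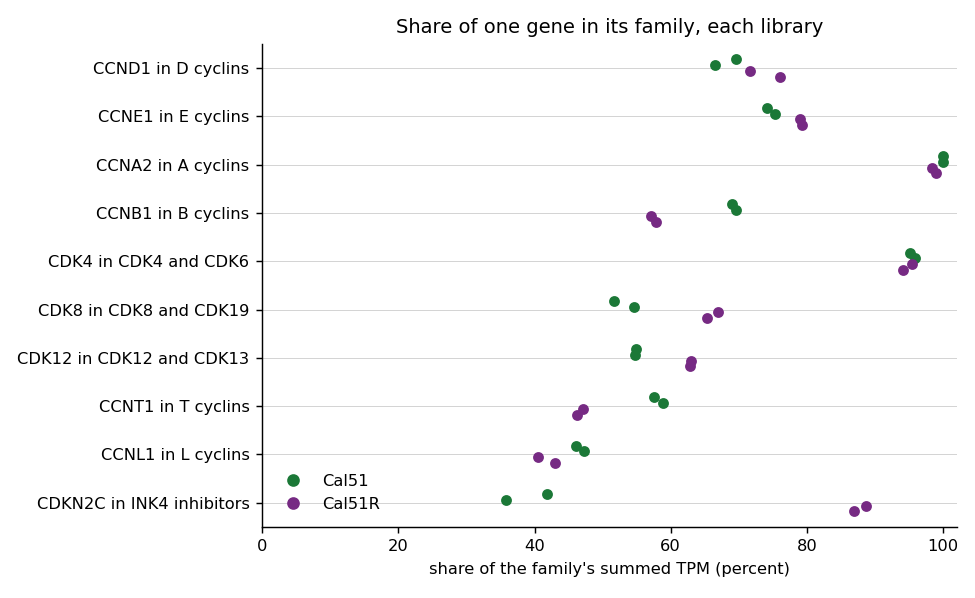
Share of 1 gene in the summed TPM of its family, in percent, for each library of Cal51 and Cal51R. CDKN2C in the INK4 genes moves most, from 41.9% and 35.8% to 88.7% and 86.9%, and the share of CDK4 is the one that overlaps between the lines.

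Of the PCTAIRE kinase genes, CDK17 and CDK18 rose, while the cyclin gene CCNY fell. PCTAIRE kinases have roles outside the division cycle, in part in neurons. CDK17 rose 2.54-fold, from 28.6 and 27.6 CPM to 67.3 and 75.4 CPM (edgeR, log2 fold change 1.34 ± 0.09 SE, adjusted p = 1.51e-09). CDK18 rose 3.41-fold, from 3.59 and 4.31 CPM to 13.7 and 13.1 CPM (edgeR, log2 fold change 1.77 ± 0.15 SE, adjusted p = 2.93e-08). CDK16, the remaining PCTAIRE gene and the most abundant of them by TPM, had 271 and 282 CPM in Cal51 and 331 and 281 CPM in Cal51R, and did not pass (edgeR adjusted p = 0.125). It passed with library totals and on both FPKM scales, with a filter of 5 CPM, and without Cal51R replicate 2 (edgeR, log2 fold change 0.25, adjusted p = 0.0055, with a range of 0.000453 to 0.846 over the alternatives). CCNY, the membrane-bound cyclin that activates CDK14 and CDK16, fell from 237 and 228 CPM to 109 and 112 CPM (edgeR, log2 fold change -1.07 ± 0.07 SE, adjusted p = 1.53e-09). CDK14 was near the limit, at 4 to 17 reads per library, and did not pass (edgeR adjusted p = 0.164).

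CDK15, a little-studied relative of CDK14, was barely detected in Cal51R. Cal51 held 42 and 44 reads of it and Cal51R 0 and 2 reads, a ratio of 46.3 with an exact 95% counting interval of 12.4 to 388.8. CDK20, a kinase tied to cilia, rose 3.14-fold, from 9 and 10 reads to 31 and 34 reads. CDK5, a kinase best known in neurons, had 24.1 and 26.4 CPM in Cal51 and 20.6 and 17.8 CPM in Cal51R (log2 fold change -0.40; edgeR adjusted p = 0.00403), a call that was lost with library totals and on both FPKM scales (adjusted p up to 0.125; 1.07e-05 to 0.125 over the alternatives). Of the remaining cyclins, CCNJ fell from 45.0 and 40.8 CPM to 21.1 and 21.0 CPM and CCNP from 5.61 and 6.17 CPM to 2.44 and 2.23 CPM. No cyclin of this remaining group of 6 tested genes rose in edgeR's test (0 at an unadjusted p under 0.05 and 0 with DESeq2), but 2 did with library totals and 2 in limma on log2(FPKM + 1), CCNG2 and CCNI. CCNI, a cyclin with little known of its role in division, had 359 and 366 CPM in Cal51 and 390.3 and 387 CPM in Cal51R (edgeR adjusted p = 0.218). CCNO, needed for multiciliated cells, overlapped between the lines at 6.40 to 7.74 CPM. CCNI2, with at most 2 reads in any library, was the member left out of the test.

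In all, 14 members passed with a smaller change or a lower level than the 24, and 14 did not pass. Of the former, 13 had log2 fold changes within -0.57 to 0.48, and the other was CCNA1. Those that did not pass had log2 fold changes of -0.16 to 0.79, the highest being CDK14, and adjusted p-values of 0.0768 to 0.933.

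The genes around the members were read from 6 lists. The counts and medians of every list stand beside 35.3% of all genes tested that rose, 35.5% that fell and a median log2 fold change of 0.02. Of 20 genes of the RB and E2F axis, 11 fell, 3 rose and 6 did not pass, with a median log2 fold change of -0.33. TFDP1, the dimer partner of E2F factors, went from 294 and 287 CPM to 71.8 and 71.2 CPM (log2 fold change -2.02 ± 0.07 SE). E2F1, an activator of S phase genes, fell 3.01-fold and E2F4 1.97-fold. TFDP2, the other dimer partner, rose 1.41-fold and LIN37, a subunit of the DREAM repressor complex, 1.64-fold. RBL2, the gene of p130, had a log2 fold change of 0.22 that passed (edgeR adjusted p = 0.032) but was lost with DESeq2 and without Cal51 replicate 1, Cal51 replicate 2 or Cal51R replicate 2 (adjusted p = 0.141, 0.148, 0.231 and 0.172; 0.000277 to 0.231 over the alternatives). With library totals 5 of this list rose.

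Of 22 tested activators and brakes of CDKs, 12 fell and 6 rose. CABLES1, which links CDKs to their tyrosine phosphorylation, fell 13.1-fold, from 19.4 and 17.6 CPM to 1.70 and 1.16 CPM. CDC25A, the phosphatase that activates CDK2, fell 2.59-fold and CKS1B, a CDK subunit needed for the degradation of p27KIP1, 1.85-fold. MED12 and MED13, which hold CDK8 or CDK19 in Mediator, rose 1.40-fold and 1.41-fold, and HEXIM2, an inhibitor of CDK9, 1.58-fold. HEXIM1, of the same list, fell with a log2 fold change of -0.79.

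Of 32 ubiquitin ligase genes that act on cyclins and CDK inhibitors, 15 fell, 5 rose and 12 did not pass. SKP2, which directs the degradation of p27KIP1, fell from 237 and 223 CPM to 83.5 and 87.9 CPM (edgeR, log2 fold change -1.43 ± 0.08 SE, adjusted p = 6.05e-11). CUL4A, a cullin scaffold, and CDC16, a subunit of the anaphase-promoting complex, fell 2.77-fold and 2.32-fold. CUL4A, TFDP1 and CDC16 all lie between 113208193 and 114272723 on chromosome 13 (GRCh38.p14). ANAPC7 and CDC27, subunits of that complex, rose 1.43-fold and 1.26-fold, and BTRC, an F-box gene, 1.31-fold. The number that rose was 3 without Cal51 replicate 1 and 13 with library totals.

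Of 19 origin licensing and firing genes, 17 fell and 0 rose in edgeR's test (0 at an unadjusted p under 0.05, and 0 with DESeq2, with library totals and in limma on log2(FPKM + 1)). The median was -0.70. MCM4 and MCM6, subunits of the replicative helicase, fell 2.38-fold and 2.04-fold, and GMNN, the gene of geminin, 2.35-fold. Of 18 genes of G2 and mitosis, 8 fell, 2 rose and 8 did not pass, with a median of -0.19. The mitotic kinase genes AURKB and AURKA and the spindle gene NUSAP1 fell 1.55-fold, 1.52-fold and 1.42-fold. BIRC5, the gene of survivin, and HMMR, another spindle gene, rose 1.19-fold each, and neither passed without Cal51 replicate 1 (edgeR adjusted p = 0.219 and 0.299; 1.3e-06 to 0.219 and 0.000156 to 0.299 over the alternatives), so that 0 of this list rose there. With library totals 5 rose and 5 fell. Of 13 tested relatives outside the symbol rule, 7 fell and 3 rose, and 3 fell and 1 rose without Cal51 replicate 2. CCNYL1 and CCNJL, relatives of CCNY and CCNJ, fell with log2 fold changes of -1.43 and -1.33, beside -1.07 and -1.03 for CCNY and CCNJ. CDKN2AIP, a binding partner of ARF, had a log2 fold change of -0.33, and CDKL1 and CDK5RAP3 rose 1.33-fold and 1.24-fold. The CDKN2AIP call was lost with library totals (edgeR adjusted p = 0.251) and on both FPKM scales, and that of CDKL1 with DESeq2 (adjusted p = 0.0953). Without Cal51 replicate 2, the calls of CDKN2AIP, CDKL1 and CDK5RAP3 were all lost.

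**Figure D5:**
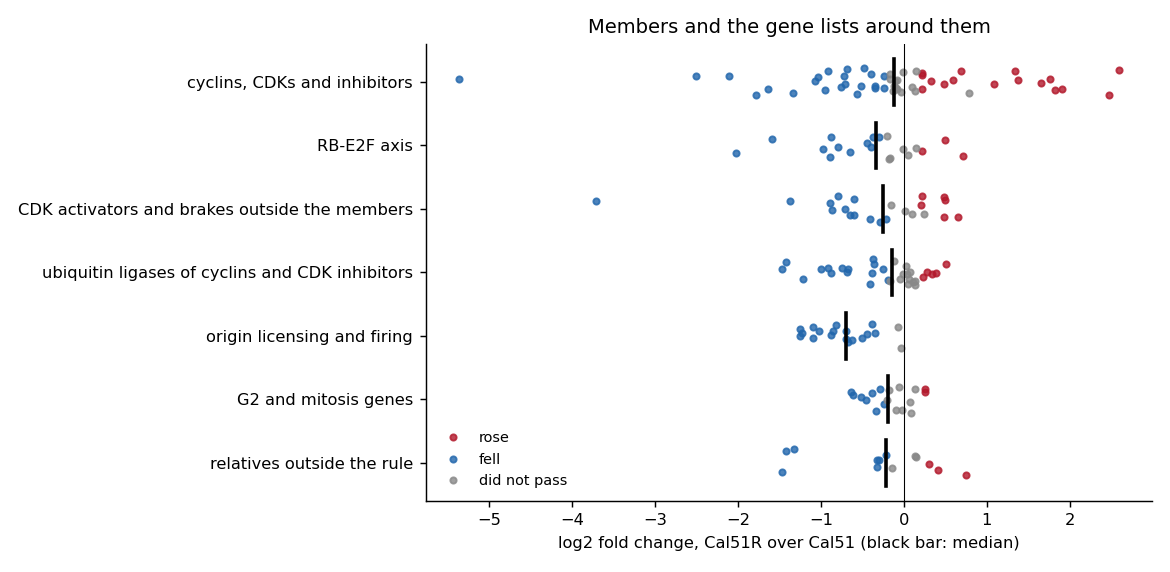
Log2 fold change of each tested gene, Cal51R over Cal51, for the cyclins, CDKs and inhibitors and for 6 lists around them, with the median as a black bar and CCNA1 drawn at its lower bound. The licensing genes lie lowest, with a median of -0.70 and 0 genes that rose, and the cyclins, CDKs and inhibitors reach from -5.37 to 2.60 with a median of -0.11.

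The members changed at least 2-fold were also set beside the tested genes within 1 Mb of them, by RefSeq positions on GRCh38.p14. Around CCNE1, 3 of 5 neighbours fell and 0 rose, the lowest being UQCRFS1 with a log2 fold change of -0.57, against -1.78 for CCNE1. Around CCND2, 0 of 9 fell and 3 rose. Around CDKN2C, 2 of 7 rose and 2 fell, with log2 fold changes of 1.58 for TTC39A and 0.98 for RAB3B, and RNF11 and OSBPL9 at -0.59 and -0.63. On 9p21, MTAP and CDKN2A had log2 fold changes of -0.68 and -1.64, whereas CDKN2B and DMRTA1, next in the order of coordinates, had 1.91 and 2.01. Before MTAP in that order, HACD4 and KLHL9 also rose, with log2 fold changes of 0.68 and 0.61, and FOCAD did not pass. Around CDK18 and CDK3, 14 of 19 and 39 of 56 neighbours rose, beside 35.3% of all genes, with medians of 0.55 and 0.44. The part of the surrounding segment in these changes was not tested.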

How the data were processed

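RNA was measured in 2 libraries of Cal51 and 2 of Cal51R by sequencing of DNA nanoballs after oligo(dT) enrichment, per the labels' protocols. RSEM 1.2.8, Bowtie2 2.2.5, HISAT2 2.1.0, hg38 and DESeq are named, with no role for each, per the submitters' processing notes. Annotation, strand-specific counting and molecular identifiers: not given in the sources used here. The authors deposited expected counts, FPKM and TPM per gene and library, per the file headers. Libraries were matched to columns by title.

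Expected counts were rounded. The test was edgeR 4.0.16's quasi-likelihood test (R 4.3.3) with TMM scaling and filterByExpr (minimum count 10), fitted to the whole table with the line as the term. P-values were adjusted by Benjamini-Hochberg over 13674 genes, and 3541 genes were left out. SE is the log2 fold change over the root of F, and intervals are 95%. Rose and fell mean an adjusted p under 0.05. CPM uses TMM-scaled sizes. The common biological coefficient of variation in edgeR, the spread within a line beyond counting error, was 5.83%. Levels of different genes were compared only in the authors' TPM. Such shares follow the lengths the authors divided by, and TPM sums between lines carry their scaling. Counting intervals and floors cover counting error only.

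Members and lists were chosen with earlier results of these data known. All members past 1.5-fold with a mean of at least 1 CPM are described, with their family partners, and up to 3 genes each way with the smallest p from each list. Positions come from RefSeq (GRCh38.p14). Promoter windows matched 48 of 53 members, and CCND1, CCND2, CCNE2, CDK2 and CDKN1C were not matched. Other settings were library totals, RLE factors, DESeq2 1.42.0, totals without the 10 highest genes, no filter, 5 CPM in 2 libraries, limma 3.58.1 on log2(FPKM + 1) and log2(FPKM + 0.1) with at least 1 FPKM in 2 libraries (where a pseudocount understates changes of low genes), the replicate number as a block, and each library left out in turn. With 1 library of a line left out, the lone library is assumed to vary like the other line's. The fits were tested on simulated data. One gene that the rule for lists names is not reported here.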

Additional observations from a re-analysis of the deposited data

How the results depend on the processing

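Of 296 values of the 24 members changed at least 1.5-fold under other settings, 295 kept their direction and side of the threshold, and 0 reversed. The number of genes past the threshold ran from 8180 to 9813 when a library was left out, against 9685, with 13 to 17 members that rose and 20 to 23 that fell. With log2(FPKM + 0.1), 14 members fell instead of 22, where 45 members were tested. With library totals, and also with totals without the 10 highest genes, 5 RB-E2F genes, 13 ligases, 5 mitotic genes and 5 relatives rose, and 5 mitotic genes and 3 relatives fell. Of all 13674 genes tested, 6395 rose with library totals, against 4830 with TMM scaling. On log2(FPKM + 1), 5 RB-E2F genes, 12 ligases, 5 mitotic genes and 5 relatives rose, and 9 ligases, 4 mitotic genes and 2 relatives fell. On log2(FPKM + 0.1), 10 ligases, 4 mitotic genes and 5 relatives rose, and 7 RB-E2F genes, 9 ligases, 4 mitotic genes and 2 relatives fell. With DESeq2, 1 mitotic gene rose. Without 1 library at a time, 3 to 6 ligases, 0 to 3 mitotic genes and 1 to 4 relatives rose, and 3 to 7 relatives fell. The causes were not tested, apart from the shift of 0.20 (log2) that library totals give every gene.

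The replicate numbers pair nothing in the labels, and deviations of same-numbered libraries correlated at r = -0.156. With a replicate block 8905 genes passed, 13 members rose, 20 fell and 1 mitotic gene rose. Among the genes named, the block ended the calls of CCNB2, CDK11B, CDK12, CDK13, CDKN1B, RBL2 and HMMR (edgeR adjusted p = 0.0548 to 0.104). With the numbers crossed, an alternative chosen after seeing the data, 10657 genes passed, 18 members rose and 25 fell.

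As shares of reads instead of TPM, the differences between lines (Cal51R minus Cal51) were -0.847 percentage points for CCNA2 (-1.37 by TPM), -10.8 for CCNB1 (-11.9), -2.89 for CDK4 (-0.736), 7.58 for CDK12 (8.14) and 36.3 for CDKN2C (49.0), since reads are not divided by length. Depth limits CCNA1, CCNB3, CCNI2, CDK14, CDK15, CDK20 and CDKN2B, which had at most 44 reads in any library.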

Other observations

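The TPM of CDKN2C rose more than its CPM. TPM per CPM changes between lines only with the length the authors divided by and with a factor shared by all genes in a library. For CDKN2C it was 1.05 and 1.00 in Cal51 and 1.44 and 1.54 in Cal51R, a ratio of 1.45 between the lines. The median of this ratio was 1.19 over the 37 members with a mean of at least 10 CPM and 1.19 over 10203 genes at that level, whose 5th and 95th percentiles were 1.13 and 1.25. Among these members CDKN2C was the highest, and CCNG2 came next at 1.24. No other member of the 37 was above the 95th percentile.

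CDKN1A, a gene the symbol rule left out that encodes the CIP/KIP inhibitor p21, had 473 and 479 CPM in Cal51 and 513 and 486 CPM in Cal51R and did not pass (log2 fold change 0.07, 95% interval -0.08 to 0.22; edgeR adjusted p = 0.403). By TPM it was above every INK4 gene in all 4 libraries, at 468 to 597 TPM.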
